A study of Abies pinsapo with 12 samples.

Results

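Needles of Spanish fir (Abies pinsapo) from thinned and shaded plots were compared with needles from dense, unthinned stands, both taken in August 2016. The comparison was defined by its libraries, 2 from thinning plus shading and 2 from control, out of 12 in the series. It covers the 14696 assembled transcripts, of 329801 in all, that stood at 10 or more in at least 2 of these 4 libraries. All trees were field-grown adults of one mountain range in southern Spain. Control trees grew in adjacent stands that were left dense, where neighbours compete for water and for light. Shaded trees, as they are called here, grew in plots thinned in 2004 and were covered with a mesh that imitates the light of the dense stands, so that water competition was low while light competition stayed high. The comparison addresses the relief from water competition with light held low. Each treatment had 3 plots of 100 m2, and control and thinned trees stood in different stands, so stand and treatment cannot be told apart. The other 8 libraries, thinned trees without a mesh in August and all 3 treatments in May 2017, are used as reference levels and for the estimate of spread. Nothing in the labels says that replicates came from separate trees, so p-values measure the spread between these libraries, which may be technical.

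Spanish fir is a relict conifer that is sensitive to summer drought. In dense stands its roots share the soil water with those of close neighbours, and crowns shade each other. Under water shortage conifers close their stomata, a response in which the hormone abscisic acid takes part, and needle cells make protective proteins and osmolytes. Light sensed by photoreceptors and used in photosynthesis sets the amounts of other needle transcripts, which is why a mesh was used to keep light apart from water. The files carry identifiers of a de novo assembly without gene names or sequences. Marker genes of needles, drought or light could therefore not be looked up, the tissue could not be checked against its markers, and transcripts are described by their levels alone.

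Values are scaled TPM, a transcript's length-corrected share of its library times 1 factor per library. The sequencing depth is unknown, which means that no counting error can be given. The 4 libraries listed between 84006 and 108677 transcripts above 0, and the 14696 transcripts held between 83.4% and 85.9% of their summed values. Of these transcripts, 10533 were at 10 or more in all 4 libraries, 909 were kept through both control libraries alone and 608 through both shaded libraries alone. At the limit of 10, 981 transcripts had a second-highest value from 10 to under 11 and were kept, and 1178 had one from 9 to under 10 and were not. Among the other libraries, the 2 of thinning in May stood apart from each other (r = 0.641 across the 14696 transcripts, against 0.878 to 0.912 within each of the other 5 groups). One of them listed 208032 transcripts above 0.

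Between the groups, the 4 libraries lay farther apart than replicates did. The root mean square difference on the log2(scaled TPM + 1) scale, which is used throughout, was 0.668 between the shaded replicates and 0.671 between the control replicates. Across groups it ranged from 0.842, for shaded replicate 1 and control replicate 2, to 1.09, for shaded replicate 2 and control replicate 1. Most transcripts differed little: 12835 (87.3%) had group means within 2-fold of each other, and the median difference of shaded minus control was -0.01. The tails were unequal, with the 1st percentile at -3.76 and the 99th at 1.94. At 4-fold or more, 488 transcripts stood lower and 137 higher in shaded trees, and at 16-fold or more 115 stood lower and 5 higher.

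In shaded trees 230 transcripts fell and 24 rose relative to control trees (limma on all 12 libraries, 6 group means, adjusted p under 0.05), which is 1.57% and 0.163% of those tested and 1.73% together. At an unadjusted p under 0.05 there were 2133 (14.5%). The falls were large, with a median log2 difference of -3.41, and 185 of the 230 were 4-fold or more. The rises had a median of 1.86, and 11 of the 24 were 4-fold or more. Of the 230 falls, 160 had passed the filter through both control libraries alone, and of the 24 rises 10 through both shaded libraries alone, so that these had to differ; 50 falls and 11 rises were at 10 or more in all 4 libraries. In all 254 the groups did not overlap. Over all 14696 tested transcripts both shaded libraries were below both control libraries in 4248 (28.9%) and above them in 3812 (25.9%). With a 4-fold difference added these counts were 479 (3.26%) and 103 (0.701%). No exact permutation test was used, since 2 against 2 libraries cannot give a p below 0.333. In needle tissue fewer cells of a type and less RNA per cell cannot be told apart.

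**Figure D1:**
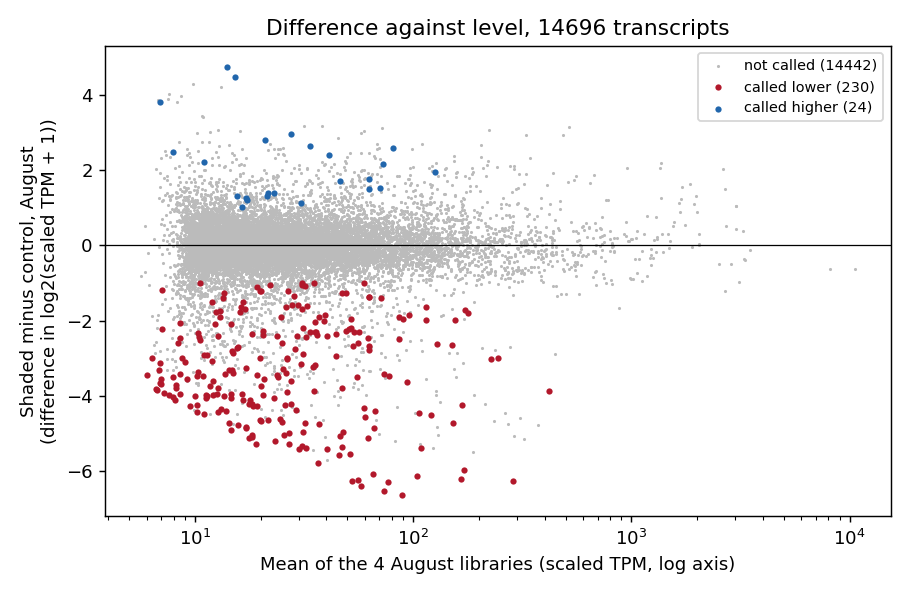
Each point is 1 of 14696 transcripts, with its mean over the 4 August libraries (scaled TPM, log axis) against the difference of shaded minus control (log2(scaled TPM + 1)). The 230 transcripts called lower reach down to -6.62 and the 24 called higher up to 4.73, and none of the 254 has a mean of 1000 or more.

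The number of calls moved strongly with the fit. It was 0 without shaded August replicate 2 and 0 without control August replicate 1, with 1242 and 1372 transcripts then at an unadjusted p under 0.05. It was 44 without shaded replicate 1 and 147 without control replicate 2, where the group left with 1 library is assumed to vary like the others. Without any one May library of shaded or control trees it was between 48 and 51, and without either August library of thinned trees it was 47. Without the May libraries of thinned trees, which stood apart, it was 541, with 445 lower and 96 higher, and all 254 were among them. Restricted to the 6 August libraries, the fit called 242 lower and 49 higher, 137 of them shared with the 254, and one of only the 4 libraries called 1. With the filter set on all 12 libraries 37 transcripts were called, 31 lower and 6 higher. Quantile normalization gave 541 lower and 303 higher, so that 64.1% of calls were lower instead of 90.6%. In every one of these fits all 254 kept their sign. Other than for quantile normalization this had to be so, since the groups did not overlap in any of the 254.

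**Figure D2:**
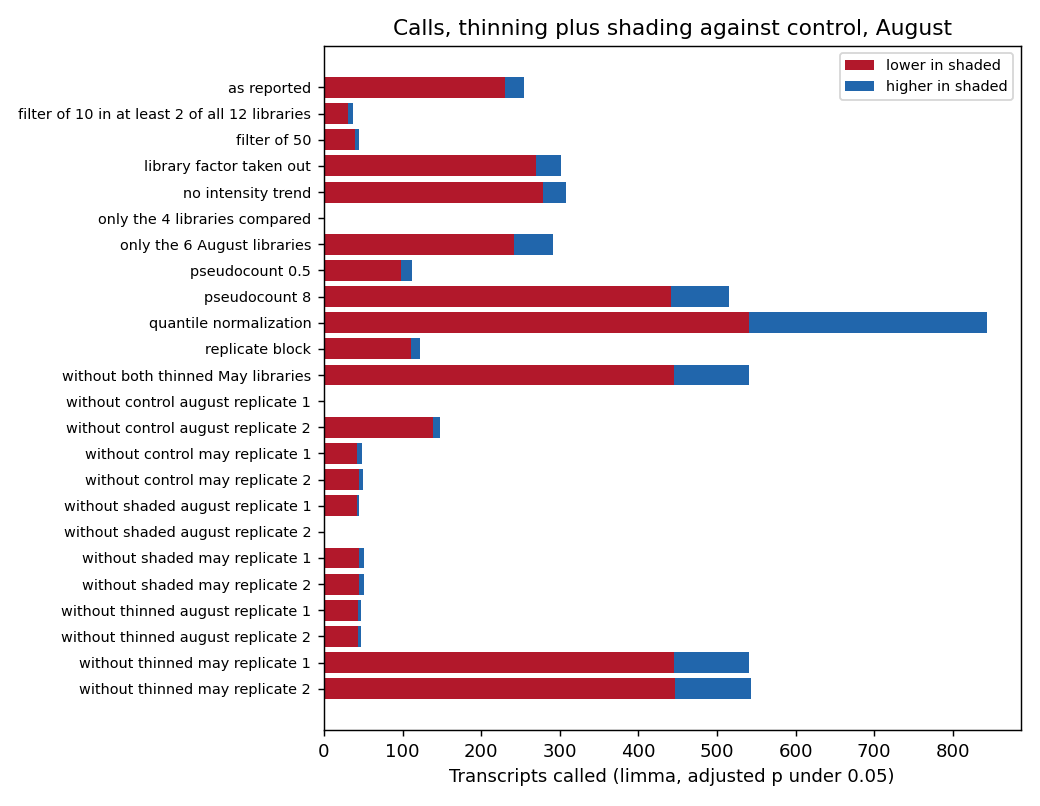
Bars give the number of transcripts called by limma (adjusted p under 0.05) in the fit as reported and in 23 other fits, split into lower (red) and higher (blue) in shaded trees. Lower calls outnumber higher ones in each fit with calls, and the bars range from 0 to 844 (the fit with no filter, at 2138, is not drawn).

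Most of the transcripts that fell had their highest values of the series in control trees in August. In 201 of the 230, both August control libraries were above all other 10 libraries, those of control trees in May included. Over all 14696 transcripts that was so in 969 (6.59%), and the call itself favours it. The 201 had medians of 55.9 and 32.8 scaled TPM in control replicates 1 and 2 in August, against 2.71 and 1.55 in the shaded replicates. Their medians were 1.52 and 1.54 in the August libraries of thinned unshaded trees, and in the 6 May libraries they ran from 1.11 to 2.68. That August control needles stand apart in this set follows from how it was picked; the levels show how far apart they stand. Thinned unshaded trees are set against the same control libraries, so their values are no separate support.

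These 201 transcripts were a small part of the needle RNA. They held 2.11% and 1.29% of the summed value of control replicates 1 and 2, 0.186% and 0.136% of the shaded replicates, and between 0.108% and 0.234% of each of the other 8 libraries. Their median difference was -3.59, and 75 fell by 16-fold or more. In 137 every one of the other 10 libraries was under 10 scaled TPM, and in 29 every one was under 1. At the upper end, 44 had a mean of 100 or more in control trees. A mean of 10 or more in shaded August trees was also reached by 44, not necessarily the same ones. The set thus ranged from transcripts with hardly any value outside the August control needles to transcripts at 10 or more in shaded needles too.

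The 2 control libraries were not alike in this set. Control replicate 1 was above replicate 2 in 182 of the 201, with a median ratio of 1.66, whereas over all 14696 transcripts replicate 1 was higher in 7493 and the median ratio was 1.01. Among the shaded libraries, replicate 1 was above replicate 2 in 151 of the 201, against 8221 over all transcripts. The library with more of these transcripts in each group was thus the one numbered 1, although the gap between the groups was larger than that within either. In 136 of the 201 the shaded and the thinned unshaded libraries of August overlapped, in 55 both shaded libraries were above both of the unshaded ones and in 10 below.

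TRINITY_DN2899_c0_g1 and TRINITY_DN1076_c0_g1 had the widest gaps between the groups among the falls. Both passed the filter through the control libraries alone and were picked by that gap. Their direction and lack of overlap were thus fixed by the picking, and their p-values are no separate support. TRINITY_DN2899_c0_g1 stood at 339 and 317 scaled TPM in the control libraries and at 2.95 and 4.05 in the shaded ones. Both control values were far above both shaded values, and the control replicates differed little. Its log2 difference was -6.20 (SE 0.65, limma adjusted p = 0.0097; 328 ± 16 in control and 3.50 ± 0.78 in shaded trees, mean ± SD, n = 2). The other 8 libraries lay between 1.03 and 9.60. TRINITY_DN1076_c0_g1 stood at 144 and 85.3 in control trees and at 0.428 and 0.247 in shaded trees, again with no overlap. Its log2 difference was -6.39 (SE 0.68, limma adjusted p = 0.0097; 114 ± 41 and 0.338 ± 0.128, n = 2). It was at 0 in 4 of the other 8 libraries and at 2.39 at most. Both lost their call without shaded replicate 2 (adjusted p = 0.095) and without control replicate 1 (0.072), TRINITY_DN2899_c0_g1 also without shaded replicate 1 (0.051), and TRINITY_DN1076_c0_g1 in the fit of only the 4 libraries (0.066). The most abundant of the 201, named by no rule and chosen after its values were seen, was at 934 and 632 in control and 81.0 and 33.3 in shaded trees.

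Some transcripts had no value at all on 1 side. In all, 17 transcripts were at 10 or more in both control libraries and listed at 0 in both shaded ones, and 14 of them were called. All 17 passed the filter through the control libraries alone, so their direction was fixed by the way they were picked; 1.73% of all tested transcripts were called. Their median level in control trees was 20.5 scaled TPM and the highest was 37.9. In the other direction 2 transcripts were at 10 or more in both shaded libraries and at 0 in both control libraries, and 0 of them were called. With the limit set at under 1 in place of 0, the counts were 66 and 10. Since depth is unknown, a listed 0 does not show that the transcript was absent.

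A smaller group of falls had its low point in the shaded needles. In 26 of the 230, both shaded August libraries were below all other 10 libraries. Over all transcripts that was so in 439 (2.99%), and the call itself favours it. Their medians were 14.3 and 11.8 scaled TPM in the shaded replicates, 42.0 and 32.0 in control, and 21.4 and 21.7 in thinned unshaded trees in August. In May they stood at 49.7 and 47.9 in control, 35.3 and 32.7 in shaded and 28.0 and 27.3 in thinned trees. The differences were moderate, with a median of -1.33, a range in size from 1.00 to 2.91, and 3 of the 26 at 4-fold or more. Unlike the 201, these transcripts had a median above 10 in every library, and control needles were the highest group by median in both months. The 26 fell in 17 components of the assembly (a component is the set of identifiers with the same DN and c numbers). The remaining 3 falls met neither description, with medians of 39.4 and 29.0 in shaded and 93.1 and 87.8 in control trees.

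**Figure D3:**
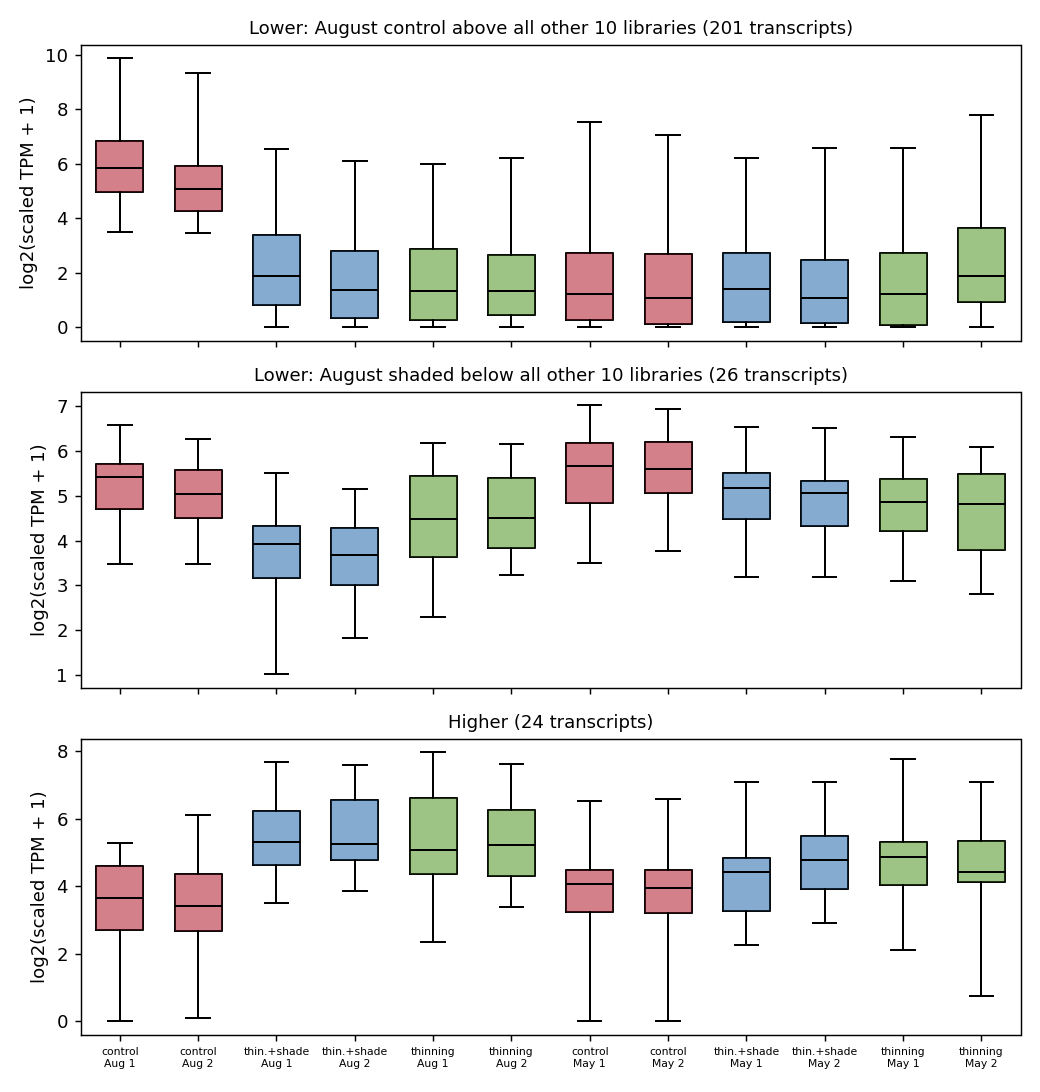
Boxes give the quartiles and whiskers the full range of log2(scaled TPM + 1) over the transcripts of each set, 1 box per library, in red for control, blue for thinning plus shading and green for thinning. In the 201 transcripts of the top panel the August control libraries stand above the rest, in the 26 of the middle panel the August shaded libraries stand below, and in the 24 of the bottom panel the August control libraries stand below those of both thinned groups.

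Transcripts that rose in shaded trees were fewer and differed less. The 24 had medians of 38.6 and 37.2 scaled TPM in the shaded and 11.6 and 9.68 in the control replicates. Thinned unshaded trees, which are set against the same control libraries, stood at medians of 32.7 and 36.7 in August. In 8 the August control libraries were the lowest of all 12, in 7 the August shaded libraries were the highest, and 1 transcript met both descriptions. Over all transcripts these positions were held in 368 (2.5%) and 576 (3.92%), and the call itself favours both. By median, August control needles were thus low and the needles of both kinds of thinned plot lay close together. The weakest rise was 1.01, the strongest 4.73 on the log2 scale.

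Of the transcripts that rose, 3 were under 1 scaled TPM in every control library of both months and stood higher in every library of thinned plots, with or without the mesh. The lowest value in thinned plots was itself under 1, at 0.665 for TRINITY_DN8579_c0_g1 in thinned May replicate 2. Over all 14696 tested transcripts these 3 were the only ones with all 4 control libraries under 1 scaled TPM and below all 8 libraries of thinned plots. This is no separate support. A transcript under 1 in both August control libraries could pass the filter only through both shaded libraries, so its August direction was fixed. Only 10 tested transcripts were of that kind. The pattern was chosen with results of these data known, and the reverse pattern was not counted. TRINITY_DN2080_c0_g2 and TRINITY_DN8579_c0_g1 passed the filter through the shaded libraries alone and were picked for the widest gaps among the rises. Their direction and lack of overlap were thus fixed by the picking, and their p-values are no separate support. TRINITY_DN2080_c0_g2 stood at 28.1 and 27.7 in shaded trees in August and at 0 and 0.194 in control trees. Its log2 difference was 4.73 (SE 0.51, limma adjusted p = 0.00999; 27.9 ± 0.3 against 0.097 ± 0.137, n = 2), and the shaded replicates nearly coincided. In thinned unshaded trees it was at 8.46 and 23.8. In May it was listed at 0 in both control libraries, at 7.04 and 17.3 in shaded and at 6.84 and 8.18 in thinned trees. A second transcript of the same component was the other member of the 3 without a name here, and the pair may share reads.

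TRINITY_DN8579_c0_g1 stood at 41.3 and 18.9 in shaded and at 0.341 and 0.300 in control trees in August. The shaded replicates were further apart than for TRINITY_DN2080_c0_g2, but both were well above the control libraries. Its log2 difference was 4.46 (SE 0.83, limma adjusted p = 0.041; 30.1 ± 15.8 against 0.321 ± 0.029, n = 2). It was at 22.5 and 18.8 in thinned unshaded trees in August, at 0 in both control libraries in May, and at 8.49 and 16.9 in shaded trees and 11.3 and 0.665 in thinned trees in May. Its call was lost without any one library of the shaded or control groups in either month or of thinned trees in August (adjusted p from 0.074 to 0.24), with a pseudocount of 0.5 (0.053), with the filter on all 12 libraries (0.088) and in the fit of only the 4 libraries (0.084). That of TRINITY_DN2080_c0_g2 was lost without either shaded August replicate (0.053 and 0.095), without control August replicate 1 (0.072) and in the fit of only the 4 libraries (0.074). The log2 differences of both stayed above 2 in every fit that tested them.

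**Figure D4:**
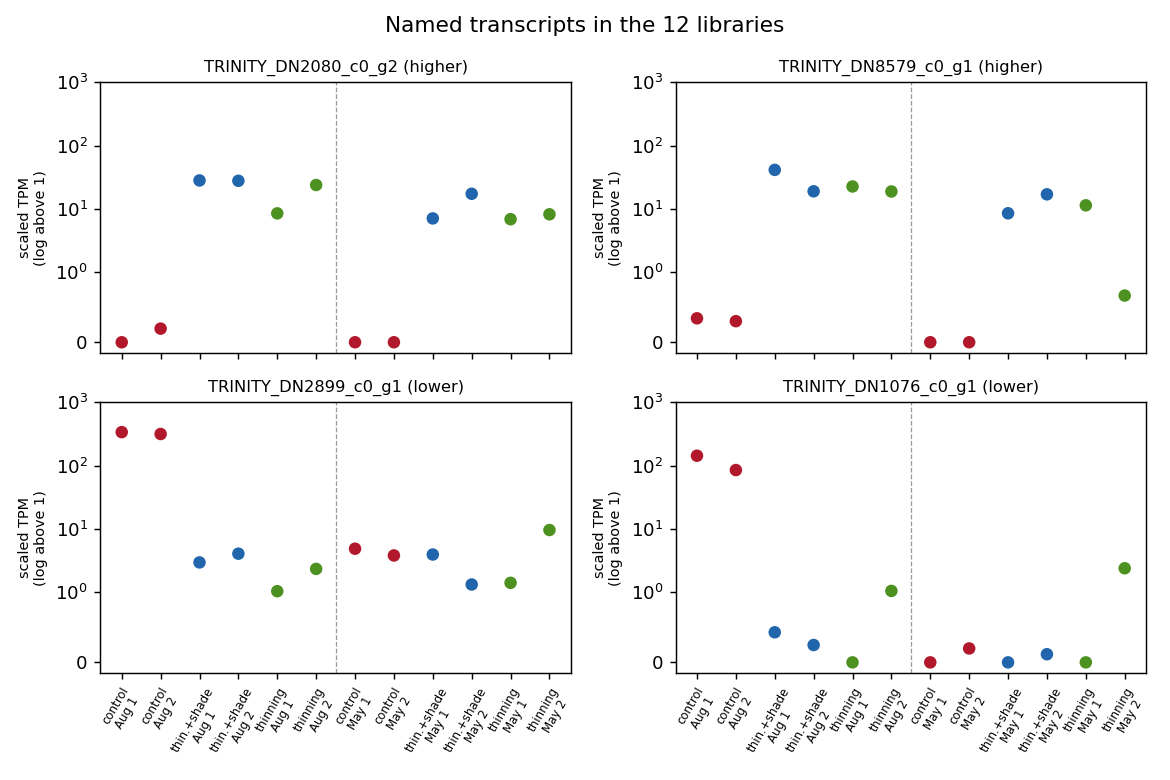
Points give the scaled TPM (linear from 0 to 1, log above) of the 4 named transcripts in each of the 12 libraries, in red for control, blue for thinning plus shading and green for thinning, with May to the right of the dashed line. TRINITY_DN2080_c0_g2 and TRINITY_DN8579_c0_g1 are under 1 in all 4 control libraries, and TRINITY_DN2899_c0_g1 and TRINITY_DN1076_c0_g1 are above 85 in August control needles alone.

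The May libraries share no sample with the August difference and gave different pictures for rises and falls. They did enter the estimate of spread behind the calls, so calls favour transcripts with close May replicates. That in turn favours May groups that do not overlap. Of the 24 transcripts that rose in August, 21 (87.5%) stood higher in shaded than in control trees in May as well, with a median difference of 0.52, and in 17 (70.8%) the May groups did not overlap in that direction. Of the 230 that fell, 116 (50.4%) stood lower in May, the median difference was -0.0023, and in 66 (28.7%) the May groups did not overlap in that direction. Over all tested transcripts the sign was the same in both months in 59.7%, and the May groups did not overlap in the August direction in 3932 (26.8%). The shares of the 24 were thus above both of these, while those of the 230 were below the first and close to the second, which was not tested. Most of the 230 were low in May, with medians from 1.81 to 2.17 scaled TPM in the control and shaded libraries. A difference of exactly 0 counted for neither share.

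Within the falls the sets went separate ways in May. Of the 201 transcripts with their peak in August control needles, 88 (43.8%) had the August sign in May, the median difference was 0, and in 39 (19.4%) the May groups did not overlap in that direction. Their medians in the May control and shaded libraries were only 1.11 to 1.63 scaled TPM, and some were listed at 0 in all of these. A difference of exactly 0 counted neither as the August sign nor as no overlap, so low levels lower both shares. Of the 26 with their low point in shaded August needles, 26 had the same sign in May, with a median difference of -0.51, and in 25 (96.2%) the May groups did not overlap, against 26.8% over all tested transcripts. In choosing the 26, every May library had to be above the August shaded ones, but the order of the groups within May was not used. The May spread was used, through the calls. In May the median difference was thus near 0 for the first set, where levels were low, and, at a smaller size, of the August sign for the second.

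No transcript was called between shaded and control trees in May (0 of 14696, 0%, limma, smallest adjusted p 0.65), and 794 (5.4%) had an unadjusted p under 0.05. In the limma fit without both thinned May libraries, which stood apart, 1629 had an unadjusted p under 0.05 in May, again with 0 called. TRINITY_DN2080_c0_g2 had a May log2 difference of 3.60 (SE 0.51) and TRINITY_DN8579_c0_g1 one of 3.71 (SE 0.83), with limma adjusted p of 0.65 and 0.86. The August differences of these transcripts exceeded those in May by 1.13 (SE 0.72) and 0.75 (SE 1.17). The difference between the months was itself tested, and 0 transcripts (0%) passed, with 968 (6.59%) at an unadjusted p under 0.05 and a smallest limma adjusted p of 0.11. Without both thinned May libraries the unadjusted number was 1638, and again 0 passed. Of the 230 falls, 216 were among those 968, and of the 24 rises 17. These counts are no separate support, since this contrast holds the August difference by which the transcripts were called. For TRINITY_DN2899_c0_g1 the August difference minus the May one was -5.55 (SE 0.92) and for TRINITY_DN1076_c0_g1 it was -6.34 (SE 0.96), with limma adjusted p of 0.14 and 0.13. Across all 14696 transcripts, which share libraries and components and are no replicates, the August and May differences had r = 0.234.

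**Figure D5:**
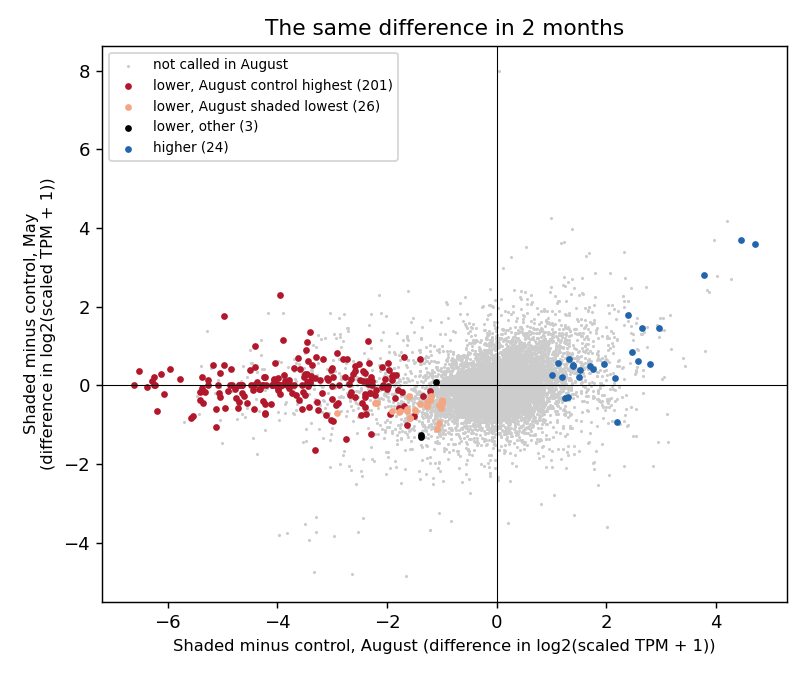
Each point is a transcript, with the difference of shaded minus control in August on the horizontal and in May on the vertical axis (both in log2(scaled TPM + 1)). The 201 falls with a peak in August control needles lie around 0 in May, the 26 with a low point in August shaded needles lie below 0, and 21 of the 24 rises lie above 0.

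Calls were spread over low and middling levels. By the mean of the 4 libraries, 3.01% of the 929 transcripts under 10 scaled TPM were called lower, 1.27% of the 8583 from 10 to under 30, 1.89% of the 3911 from 30 to under 100, 1.57% of the 1212 from 100 to under 1000, and 0 of the 61 at 1000 or more. Over all tested transcripts 1.57% were called lower, so 0 of 61 is not far from that share. The transcripts called higher numbered 2, 12, 9, 1 and 0 in the same classes. The median difference stayed between -0.03 and 0.00 in the 4 classes under 1000 and was 0.17 in the highest class. Of 159 transcripts with a mean of 500 or more, 12 stood higher and 1 lower in shaded trees by 1.5 log2 units or more, and 0 of these 13 were called. The limits of 500 and 1.5 were not planned, and no share over all tested transcripts was taken at 1.5. At 4-fold or more, 44 stood lower and 25 higher from 100 to under 1000, and 0 lower and 3 higher at 1000 or more.

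One of these abundant transcripts was at 4876 scaled TPM in shaded replicate 1 but at 138 in replicate 2, with 93.1 and 345 in control trees. Its log2 difference of 2.19 had an SE of 1.40 and a limma adjusted p of 0.55. Another was at 4149 and 4231 in the shaded and at 809 and 1300 in the control libraries, with no overlap. The spread between replicates, taken over all groups of the series, still gave it an SE of 1.23 for a difference of 2.03 (limma adjusted p = 0.52). Both were picked after their values were seen.

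The 3 most abundant transcripts were TRINITY_DN7298_c0_g1, TRINITY_DN7298_c0_g2 and TRINITY_DN1564_c0_g1. TRINITY_DN7298_c0_g1 was at 9064 and 7608 scaled TPM in shaded and at 11946 and 13649 in control trees. Its groups did not overlap, but the log2 difference of -0.62 (95% interval -1.46 to 0.21) did not pass the test (limma adjusted p = 0.50), and it was 0 after quantile normalization. TRINITY_DN7298_c0_g2, of the same component, was at 6960 and 5818 against 9157 and 10634. TRINITY_DN1564_c0_g1 was at 3564 and 3105 in shaded and at 3733 and 3545 in control trees, where the groups overlapped and the difference was -0.13 (95% interval -0.74 to 0.48). Among the 20 most abundant transcripts 9 differences were below 0 and 11 above, from -1.22 to 2.03.

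Calls of 1 component had 1 direction. The 254 calls came from 197 components, of which 50 held more than 1 call and 107 calls in all. Calls in both directions were held by 0 of the 50, but 90.6% of all calls were lower, so a shared direction is frequent in any case. The differences within such a component spanned 0.18 log2 units by median and 2.48 at most, and the largest components held 4 calls. A further 67 tested transcripts of the 197 components were not called, and 61 of them had the sign of the call, a share not set against other transcripts. Transcripts of a component can share sequence and reads, so the calls are not all separate. When values were summed per component, an alternative chosen after seeing the data, 207 of 12078 components were called, 187 lower and 20 higher.

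For the 14442 transcripts that were not called, the 95% interval of a difference reached a median of 0.752 log2 units to either side before adjustment. In 5988 of them (41.5%) the interval lay within 2-fold in both directions. In the remaining ones a difference of 2-fold or more in at least 1 direction was not outside it.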

How the data were processed

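Needle RNA was sequenced as paired reads of 150 bp after poly(A) selection of samples with an RNA integrity number above 7, per the labels' protocols, which also speak of pine roots although the tissue and organism labels name fir needles. Per the submitters' processing notes, Trimmomatic, DESeq2 and RSEM were used by the authors; their versions, the assembly and any filter are not stated there. The authors deposited a normalised signal. After rescaling to a common total, at least 99.3% of the non-zero values of each library fell on steps of 0.01 (tolerance 0.1 step), so they were read as TPM times 1 factor per library. No reads could be recovered, so no count test was run. Columns were matched to samples by their descriptions, and groups were taken from titles.

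Transcripts at 10 or more in at least 2 of the 4 compared libraries entered a limma fit (version 3.58.1, R 4.3.3) of log2(value + 1) with all 12 libraries, 6 residual degrees of freedom, an intensity trend and two-sided p-values adjusted by Benjamini-Hochberg in each of 3 contrasts. The fit was checked on simulated data in which a transcript had the same spread in all groups. That check does not cover the wider spread of the thinned May libraries. Named transcripts are the 2 rises and 2 falls with the widest gap between groups, among calls with a mean of 20 or more in the higher group, and the 3 with the highest mean. Members, tests and rules were chosen with earlier results of these data known. Pathway and marker lists could not be applied. Alternatives changed the pseudocount, filter, scaling, libraries, trend and replicate block.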

Additional observations from a re-analysis of the deposited data

How the results depend on the processing

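The 254 calls in August became 112 with a pseudocount of 0.5 and 515 with 8, 45 with a filter of 50 and 2138 of 97841 with no filter, 37 with the filter on all 12 libraries, 844 after quantile normalization and 1 in the 4 libraries alone. Without any one of the 12 libraries they ranged from 0 to 543, and without both thinned May libraries they were 541. The fits without thinned unshaded libraries of either month and the sums per component were chosen after seeing the data. The counts stayed within 1.5 times with the library factor taken out (301), in the 6 August libraries (291), with no trend (308) and per component (207). The cause of the other changes was not tested. The numbers 1 and 2 are not said to pair libraries, and same-numbered deviations had r = -0.19 across transcripts; with the replicate block 122 were called, and TRINITY_DN8579_c0_g1 was lost (limma adjusted p = 0.061).

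Groups that did not overlap numbered 817 higher and 1080 lower with a filter of 50, and 23657 and 18529 with no filter. With 4-fold added, the higher ones were 24 with a pseudocount of 8, 29 with a filter of 50, 291 with no filter, 284 after quantile normalization and 163 to 230 without 1 of the 4 compared libraries, and the lower ones 208, 140 and 1078 under the first 3 of these. No alternative gave a call in May. Between the months there were 136 calls with a pseudocount of 8, 720 with no filter, 5 after quantile normalization, 87 with no trend, 1 with the replicate block, 1 per component, and 0 to 4 without 1 library. Depth is unknown, and 2 libraries per group limit every value.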
